A study of Mus musculus with 22 samples.

Results

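The hearts of TRα1+m mice and wild-type mice that had both received T3, the active thyroid hormone, were compared on 11 of the 22 Clariom S Mouse arrays of the study. These were the 5 arrays titled for the mutant on T3 and the 6 titled for the wild type on T3, and the 21092 gene probe sets whose log2 intensity averaged above 4 over the 22 arrays were tested. TRα1+m mice carry 1 germline copy of Thra with a point substitution that lowers the affinity of the receptor for T3, in all tissues and throughout development, beside 1 normal copy. The TRα1+m T3 and wild-type T3 groups drank water with 0.5 mg/L T3 and 0.01% bovine serum albumin for 12 days, and the TRα1+m water (n = 5) and wild-type water (n = 6) groups drank water with the albumin alone. All were male mice of a C57BL/6NCr background, 3 to 6 months old and housed singly at 30 °C under a constant light/dark cycle. The wild-type animals of the study were bought from a breeder or were littermates from the local colony, and which arrays came from which source is not given. RNA came from whole heart, so all chambers and cell types contributed. Each array was taken as 1 animal, because the series description counts as many animals as arrays.

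Thyroid hormone acts in the nucleus through receptors bound to DNA, which repress their target genes without hormone and activate them once T3 is bound. TRα1 is the main receptor isoform of the heart, where T3 is known to raise the pacemaker channel Hcn2, the calcium pump Atp2a2 and the fast myosin Myh6 and to lower the slow myosin Myh7. A receptor of low affinity remains a repressor at normal hormone levels and can be activated by excess T3. The study describes this reactivation in TRα1+m mice as full. It also reports that serum T3 under treatment was somewhat higher in TRα1+m than in wild-type mice. The comparison on T3 thus asks which genes still differed between the genotypes once hormone was in excess, and the water groups, which share no array with it, show the genotype difference at the animals' own hormone level.

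The deposited log2 intensities of the 2 genotypes lay on different scales, with array medians of 7.02 to 7.08 in TRα1+m T3 hearts and 6.51 to 6.62 in wild-type T3 hearts, and no label gives a batch, so that genotype and array batch cannot be told apart. All values below are therefore log2 intensities after joint quantile normalization of the gene probe sets over the 22 arrays, differences are TRα1+m minus wild type, and a gene is called at a Benjamini-Hochberg adjusted p below 0.05 in limma. On this scale 7517 probe sets were called on T3, 35.6% of those tested, with 3515 higher (16.7%) and 4002 lower (19%) in TRα1+m hearts. On the deposited scale 9410 were higher and 1328 lower, with a median difference of 0.35 over all gene probe sets, and after centring each array on its median 2328 were higher and 5919 lower. Group counts that follow are to be read against the 16.7% higher and 19% lower over all probe sets. Counts on the other 2 scales are given where the balance of higher and lower genes moved most. They are to be read against 9410 higher and 1328 lower (deposited) or 2328 and 5919 (median centred) of the same 21092 probe sets. A balance that turns on those scales thus stands beside a shift of all probe sets. Among the 4991 probe sets that measure no gene (negative controls), 13% reached the same unadjusted p and their median difference was -0.13, so that probe sets without a target also differed between the groups. In a principal component analysis of the 22 arrays the genotypes lay apart on component 1 (36.6% of the variance) and T3 and water on component 2 (17.7%). Wild-type T3 array 6 and wild-type water array 3 stood apart on component 3 (8.15%), and results that changed without them are named. The 15 cardiomyocyte markers tested were all strongly detected, with a mean log2 level per array of 17.84 to 17.89 in TRα1+m T3 hearts and 17.79 to 17.87 in wild-type T3 hearts, 3 of them called higher and 3 lower. Joint quantile normalization gives all arrays the same distribution, and these markers lie near its top. Their like levels are therefore not a separate check of cardiomyocyte content.

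The receptor gene itself separated the genotypes. Thra intensities in the 5 TRα1+m T3 hearts were 11.11, 10.78, 11.21, 11.20 and 11.09, against a lowest, median and highest value of 9.72, 9.90 and 10.09 in the 6 wild-type T3 hearts. No mutant array overlapped the wild-type range, as held for 9.34% of all probe sets with the mutants above and 10.8% with the mutants below. The means were 11.08 ± 0.18 in TRα1+m T3 hearts and 9.88 ± 0.13 in wild-type T3 hearts (SD, n = 5 and n = 6, as for all means below), a difference of 1.19 ± 0.14 (SE, adjusted p = 8.6e-07) or 2.29-fold. On water Thra was also higher in TRα1+m hearts, by 1.39 ± 0.14, and both genotypes had more Thra on water (means 12.19 in TRα1+m and 10.81 in wild type) than on T3. The array does not separate the mutant from the normal allele or the receptor isoforms spliced from this gene. Thra lies on chromosome 11, on which 36.7% of the tested named genes were called, within the 32.3% to 38.7% of the other chromosomes apart from Y.

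The classical hormone targets Hr and Klf9 were lower in TRα1+m hearts although both genotypes received T3. Hr, which encodes the corepressor Hairless and is a classical target of the receptor, had 7.26, 6.53, 6.65, 7.04 and 6.89 in TRα1+m T3 hearts, against 8.21, 8.52 and 8.56 (lowest, median, highest) in wild-type T3 hearts. Every mutant array lay below every wild-type array, and the difference was -1.59 ± 0.21 (adjusted p = 6.0e-06), 3.02-fold lower. On water the means were 6.38 ± 0.27 in TRα1+m hearts and 6.62 ± 0.60 in wild-type hearts with no call (difference -0.24 ± 0.21, adjusted p = 0.39). The interaction was called (-1.35 ± 0.30, adjusted p = 0.041). However, the TRα1+m water mean of Hr lay below the median negative-control probe set of its group (6.52), and the wild-type water mean just above that of its own (6.56). The water difference and the size of the interaction were therefore not measured above background. Klf9, a hormone-induced zinc finger factor, read 11.77, 12.11, 12.24, 12.34 and 12.37 in TRα1+m T3 hearts, against 13.19, 13.45 and 13.70 in wild-type T3 hearts. These ranges were also apart, with a difference of -1.29 ± 0.17 (adjusted p = 6.8e-06), and on water the difference was -1.93 ± 0.17. In wild-type hearts Klf9 on T3 overlapped its values on water (12.58 to 13.67). Thrb, the second receptor gene, was lower by 0.82 ± 0.16 (adjusted p = 4.4e-04), although it is listed here among the genes repressed by T3. Not all genes listed as induced by T3 were lower. Thrsp, a lipogenic gene named here after its values were seen, was higher by 1.17 ± 0.38 (adjusted p = 0.020). The coactivator Ppargc1a was higher by 0.73 ± 0.12 (adjusted p = 7.0e-05). In these hearts, however, Ppargc1a was lower on T3 than on water in both genotypes. It had 13.72 to 14.11 on T3 and 14.76 to 15.27 on water in wild-type hearts. In TRα1+m hearts it had 14.43 to 14.90 on T3 and 15.31 to 15.75 on water.

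Of 18 tested genes listed as induced by T3 in heart or other tissues, 8 were lower and 2 higher in TRα1+m T3 hearts, with a median difference of -0.34 beside -0.04 over all 18510 named genes. The corresponding counts were 5 lower and 3 higher on the deposited scale and 9 lower and none higher after median centring. On water 10 of them were lower and 1 higher. The 10 genes listed as repressed by T3 gave 2 higher and 1 lower call on T3, against 6 and 1 on water, and on T3 they gave 4 and 1 on the deposited scale and 1 and 2 after median centring. Of the 25 tested genes of the wider hormone axis (receptors, cofactors, transporters and deiodinases), 10 were lower and 2 higher on T3, against 5 and 5 on the deposited scale and 12 and 1 after median centring. Lists of this length are described by their counts only, beside 19% lower and 16.7% higher on T3 over all probe sets.

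**Figure D1:**
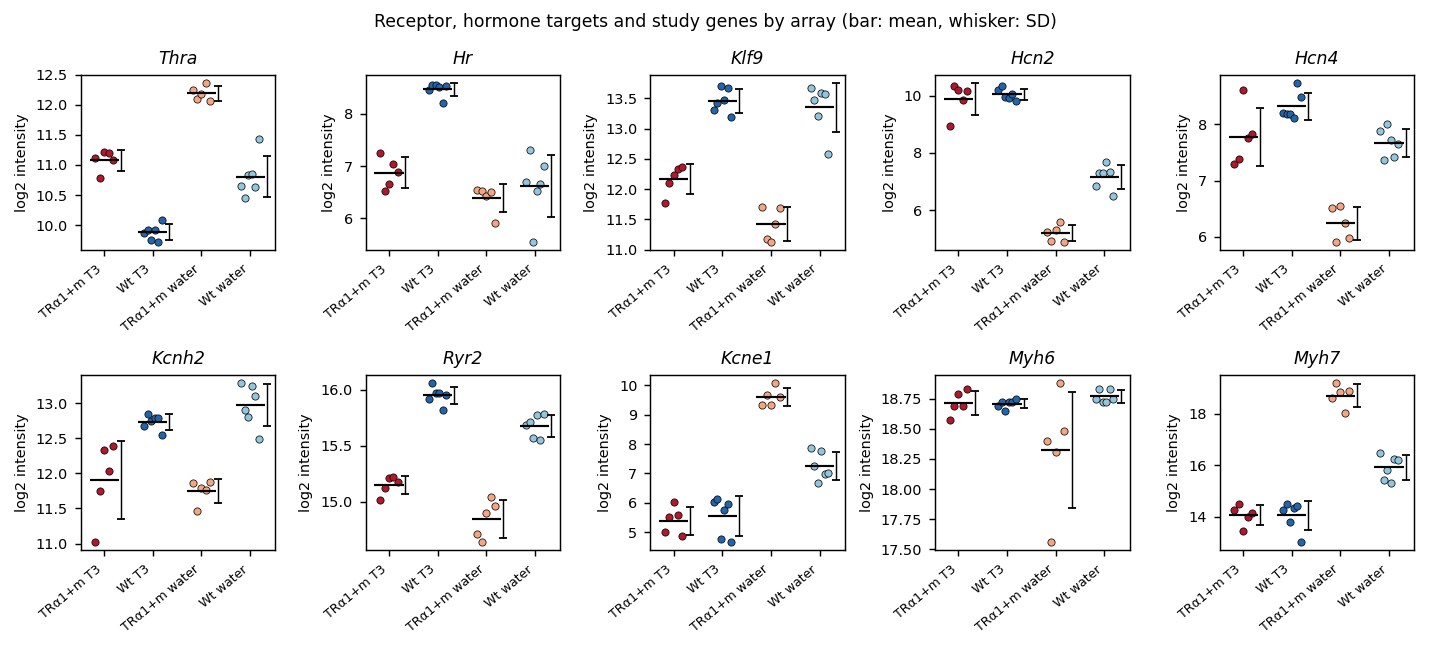
Normalized log2 intensity of 10 genes in every array, with TRα1+m T3, wild-type T3, TRα1+m water and wild-type water from left to right, and with points for arrays, bars for means and whiskers for SD. Thra, Hr, Klf9 and Ryr2 keep the T3 groups apart, whereas for Hcn2, Myh6 and Myh7 the 2 T3 groups overlap.

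The heart rate genes at the centre of the study were mixed on T3. Hcn2, the hyperpolarization-activated channel that is a textbook T3 target, had 8.93, 10.33, 10.19, 9.85 and 10.17 in TRα1+m T3 hearts, against 9.80, 10.01 and 10.34 (lowest, median, highest) in wild-type T3 hearts. The ranges overlapped, with only TRα1+m T3 array 1 below all wild-type arrays. The difference was -0.15 ± 0.22 with a 95% interval of -0.61 to 0.30 (adjusted p = 0.61), so a reduction of up to 0.61 on the log2 scale was not excluded by these arrays. On water the means were 5.19 ± 0.29 in TRα1+m hearts and 7.16 ± 0.42 in wild-type hearts, a difference of -1.97 ± 0.22, and the interaction was 1.81 ± 0.31 (adjusted p = 0.0047). The TRα1+m water mean lay below the median negative-control probe set of its group (6.52) and the wild-type water mean above that of its own (6.56), and T3 hearts of both genotypes were well above.

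Hcn4, a pacemaker channel that dominates in the sinoatrial node, read 7.29, 7.39, 8.61, 7.75 and 7.83 in TRα1+m T3 hearts, against 8.12, 8.20 and 8.74 in wild-type T3 hearts. Its ranges overlapped through TRα1+m T3 array 3, and the difference of -0.54 ± 0.19 (adjusted p = 0.031) was not called without TRα1+m T3 array 1, 2 or 4 (-0.42, -0.45 and -0.54), without wild-type T3 array 5 or 6 (-0.46 and -0.51) or on the deposited scale (-0.11). The Hcn4 call was also lost when the 11 T3 arrays were fitted alone, with or without their own normalization (-0.54 in both). It was lost as well without the 2 arrays that stood apart (-0.51) and after correction by negative controls of like level (-0.41). Kcnh2, the pore subunit of the rapid delayed rectifier, had 11.02, 11.75, 12.34, 12.04 and 12.39 in TRα1+m T3 hearts, against 12.54, 12.77 and 12.84 in wild-type T3 hearts. All mutant arrays were below the wild-type range, array 1 by the widest margin, and the difference was -0.82 ± 0.19 (adjusted p = 0.0016). Ryr2, the ryanodine receptor that releases calcium for contraction, read 15.02, 15.12, 15.21, 15.22 and 15.18 in TRα1+m T3 hearts, against 15.82, 15.96 and 16.06 in wild-type T3 hearts. It was lower to a similar degree on T3 (-0.80 ± 0.09, adjusted p = 1.1e-06) and on water (-0.83 ± 0.09), with tight replicates. The accessory subunit gene Kcne1 was not called on T3 (-0.16 ± 0.28, 95% interval -0.74 to 0.42, adjusted p = 0.69), while on water it was higher in TRα1+m hearts by 2.34 ± 0.28 (interaction -2.50 ± 0.40, adjusted p = 0.0025). On T3 both group means of Kcne1 lay below the median negative-control probe set, so neither a T3 level nor the size of its interaction was measured above background. Chrm2, the cardiac muscarinic receptor, had means of 10.43 ± 0.41 in TRα1+m T3 hearts and 10.40 ± 0.10 in wild-type T3 hearts (difference 0.03 ± 0.15, adjusted p = 0.91).

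Pacemaking and conduction genes as a list gave 12 lower and 6 higher calls out of 36 on T3, beside 19% and 16.7% over all probe sets. The balance depended on the scale, with 6 lower and 16 higher on the deposited scale and 15 lower and 1 higher after median centring. The genes that led the lower side were large enough to keep their sign on every scale. Cntn2, a cell adhesion molecule that marks the ventricular conduction system, had 6.84, 7.48, 7.51, 6.77 and 6.53 in TRα1+m T3 hearts, against 9.30, 9.57 and 9.81 in wild-type T3 hearts. The gap between the groups was wider than either range, and the difference of -2.54 ± 0.20 (adjusted p = 5.4e-09) corresponded to 5.83-fold, beside -1.96 ± 0.20 on water. All TRα1+m water arrays (4.43 to 5.57) lay below the median negative-control probe set of their group (6.52). The size of the water difference of Cntn2 was therefore not measured above background. Gja1, which encodes the gap junction protein connexin 43, fell by 0.69 ± 0.11, and Cacna1g, a T-type calcium channel, fell by 0.96 ± 0.19 (adjusted p = 4.4e-05 and 5.5e-04). Cacnb2, a subunit of the L-type calcium channel, fell by 0.42 ± 0.09. The transcription factor Tbx20 was not called (-0.20 ± 0.12, adjusted p = 0.19).

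Among 53 potassium channel genes 15 were lower and 7 higher in TRα1+m T3 hearts, beside 19% and 16.7% over all probe sets. There were 8 lower and 22 higher on the deposited scale, on which calls over all probe sets were also mostly higher. After median centring 18 were lower and 6 higher. Kcnd2, a channel of the transient outward current, had 6.71, 7.79, 7.79, 7.64 and 7.83 in TRα1+m T3 hearts, against 8.92, 9.21 and 9.49 in wild-type T3 hearts. Its groups did not overlap and array 1 was again the lowest of the mutants, with a difference of -1.66 ± 0.20 (adjusted p = 2.2e-06, 3.16-fold). Kcna5, known as a T3-induced gene of the heart, fell by 1.36 ± 0.23 (adjusted p = 1.1e-04), and Kcna7 fell by 1.40 ± 0.19, with its mutant mean below the median negative control. For Kcna4, called higher, and for Kcnk1 and the sodium channel subunit Scn2b, called lower, both group means lay below the median negative control, so no size is given. Abcc9, the regulatory subunit of the ATP-sensitive channel, had the highest intensity of the uncalled members of its list (0.29 ± 0.12, adjusted p = 0.058).

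Signalling downstream of the autonomic receptors included some of the most reduced genes. Rgs7, a regulator that shortens G protein signalling, had 8.38, 8.95, 9.61, 9.05 and 9.57 in TRα1+m T3 hearts, against 10.65, 10.99 and 11.29 in wild-type T3 hearts. No array of one genotype reached the other, and the difference was -1.89 ± 0.25 (adjusted p = 5.6e-06, 3.72-fold). Its relative Rgs6 fell by 0.87 ± 0.13, and the kinase anchor Akap5 fell by 1.29 ± 0.16 (adjusted p = 1.9e-06) with its mutant mean below the median negative control. Pde3a, the phosphodiesterase that degrades cyclic AMP in cardiac muscle, was instead higher by 1.11 ± 0.12 (adjusted p = 5.2e-07). Over the 46 tested members 11 were lower and 9 higher, beside 19% and 16.7% over all probe sets. The counts were 6 and 16 on the deposited scale and 19 and 5 after median centring.

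Calcium cycling genes gave 7 lower and 5 higher calls of 24, beside 19% and 16.7% over all probe sets. The counts were 5 and 9 on the deposited scale and 13 and 1 after median centring. Atp2a2, the calcium pump of the sarcoplasmic reticulum, had 18.94, 19.16, 19.27, 19.27 and 19.23 in TRα1+m T3 hearts, against 19.37, 19.57 and 19.64 in wild-type T3 hearts. The ranges were apart by a small margin near the top of the array's scale, with a difference of -0.37 ± 0.09 (adjusted p = 0.0025). The calcium-binding protein Hrc fell by 0.80 ± 0.14 and the calmodulin gene Calm3 fell by 0.56 ± 0.09 (adjusted p = 1.1e-04 and 4.8e-05). Phospholamban (Pln) was not called, at 0.13 ± 0.08 (adjusted p = 0.25), and it was -0.53 after median centring. The exchanger Slc8a1 was higher by 0.39 ± 0.13 (adjusted p = 0.020), a call that was lost without TRα1+m T3 array 3 or wild-type T3 array 5 (0.28 and 0.32), after median centring (0.0013) and after correction by negative controls of like level (0.21).

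Atp2a1, the calcium pump of fast skeletal muscle, showed the smallest p among the named reductions. It had 5.20, 5.04, 5.39, 4.76 and 4.87 in TRα1+m T3 hearts, against 7.65, 8.10 and 8.42 in wild-type T3 hearts. The mutant arrays lay below 6.32, the median negative-control probe set of their group, and the wild-type arrays above it, with a difference of -2.96 ± 0.18 (adjusted p = 1.7e-10). Set against that negative-control median, the wild-type mean was 3.24-fold higher, and no mutant signal above background was shown. On water the difference was -1.39 ± 0.18, and the interaction was called (-1.57 ± 0.25, adjusted p = 0.0026). Both water means of Atp2a1 lay below the median negative controls of their groups (6.52 in TRα1+m and 6.56 in wild type). The size of its interaction was therefore not measured above background. Of the 12 skeletal muscle markers tested, Atp2a1 among them, 2 were lower and 1 higher on T3, and 3 had a T3 group mean above the median negative control. Their mean log2 level per array, to which Atp2a1 itself contributes, was 5.74 to 5.84 in TRα1+m T3 hearts and 5.94 to 6.40 in wild-type T3 hearts. Their summed intensity, on the log2 scale, overlapped, at 10.67 to 12.33 in TRα1+m T3 hearts and 11.3 to 12.11 in wild-type T3 hearts. Whether skeletal muscle RNA had a part in the Atp2a1 difference was not tested.

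In the contractile apparatus Myh7 did not separate the genotypes on T3. It encodes the slow beta myosin heavy chain that T3 represses and had 14.28, 14.51, 13.46, 13.97 and 14.15 in TRα1+m T3 hearts, against 13.01, 14.31 and 14.48 in wild-type T3 hearts. The 2 groups overlapped almost fully (difference 0.02 ± 0.27, 95% interval -0.53 to 0.58, adjusted p = 0.96), whereas on water the means were 18.70 ± 0.44 in TRα1+m hearts and 15.92 ± 0.48 in wild-type hearts, 2.79 ± 0.27 apart (interaction -2.76 ± 0.38, adjusted p = 5.3e-04). The slow skeletal troponin gene Tnni1, chosen after its values were seen, was called for the interaction (-2.28 ± 0.29, adjusted p = 2.0e-04), but all its group means lay below the median negative control, on T3 and on water. Myh6, the fast alpha myosin, differed by 0.00 ± 0.14 on T3 (95% interval -0.30 to 0.30), but by -0.65 after median centring.

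Myom2 behaved in the opposite manner. This M-band protein gene had 13.96, 14.86, 14.72, 14.55 and 14.46 in TRα1+m T3 hearts, against 11.70, 12.37 and 12.57 in wild-type T3 hearts. The lowest mutant array was above the highest wild-type array, and the difference was 2.30 ± 0.18 on T3 (adjusted p = 6.8e-09, 4.92-fold) and 0.62 ± 0.18 on water, with an interaction of 1.68 ± 0.26 (adjusted p = 0.0015). Both genotypes had less Myom2 on T3 than on water, where the means were 16.55 in TRα1+m hearts and 15.93 in wild-type hearts. The light chain gene Myl1 fell by 1.24 ± 0.18 (adjusted p = 1.5e-05). Cardiac troponins Tnnt2 and Tnni3 were higher by 0.60 ± 0.09 and 0.43 ± 0.09, but not after median centring (-0.09 and -0.01). Over 44 sarcomere genes 9 were higher and 9 lower, beside 16.7% and 19% over all probe sets. The counts were 13 and 7 on the deposited scale and 3 and 19 after median centring, and Tpm1 was not called (adjusted p = 0.99). The natriuretic peptide gene Nppa was not called (0.10 ± 0.11, adjusted p = 0.52).

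Circadian clock genes held some of the largest genotype differences on T3. The clock is a transcriptional loop in which Arntl (Bmal1) with Clock or Npas2 activates the Per and Cry genes, the Rev-erb repressors Nr1d1 and Nr1d2 and the output factors Dbp, Tef and Hlf, while the Rev-erb proteins repress Arntl and Npas2. Of 18 clock genes tested, 11 were lower and 3 higher in TRα1+m T3 hearts, with a median of -0.97, against 19% and 16.7% over all probe sets. The count was 7 lower and 3 higher on the deposited scale and 12 and 3 after median centring. On water 12 were lower and 3 higher, with a median of -0.86. No source used here gives the hour at which the hearts were taken, and a difference in hour or in rhythm between the groups cannot be told apart from a difference in level.

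The output gene Dbp had 12.83, 12.33, 12.87, 12.86 and 12.71 in TRα1+m T3 hearts, against 14.39, 16.75 and 17.37 (lowest, median, highest) in wild-type T3 hearts. The mutant arrays were within a narrow band, far below every wild-type array, of which array 6 was the lowest. The difference was -3.67 ± 0.41 (adjusted p = 6.3e-07), 12.8-fold lower in TRα1+m hearts, and -2.18 ± 0.41 on water. Nr1d1, whose gene overlaps the end of Thra on the opposite strand, had 10.72, 9.67, 10.84, 10.72 and 10.39 in TRα1+m T3 hearts, against 11.63, 13.27 and 13.35 in wild-type T3 hearts. It fell by 2.50 ± 0.29 (adjusted p = 1.3e-06, 5.65-fold), again with wild-type array 6 nearest the mutants. Nr1d2 fell by 1.97 ± 0.21 (adjusted p = 4.5e-07).

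Their repressed targets went the other way. Arntl read 10.87, 10.86, 11.02, 10.82 and 10.68 in TRα1+m T3 hearts, against 7.53, 8.54 and 10.06 in wild-type T3 hearts. Mutant arrays were all above the wild-type range, whose top was set by array 6, and the difference was 2.30 ± 0.50 (adjusted p = 0.0011, 4.94-fold). Npas2, chosen after its values were seen as were Nfil3 and the Per, Cry and output genes named here apart from Cry2 and Dbp, read 9.28, 8.99, 9.10, 8.75 and 8.88 in TRα1+m T3 hearts, against 6.03, 7.26 and 7.97 in wild-type T3 hearts. This gave a difference of 1.87 ± 0.31 (adjusted p = 6.6e-05) without overlap. Nfil3, a repressor that competes with Dbp, was also higher (0.59 ± 0.21, adjusted p = 0.029), though the call was lost without any of 6 of the 11 arrays, with differences between 0.51 and 0.58. Clock itself was not called (0.19 ± 0.14, adjusted p = 0.30).

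Among the negative limb, Per3 had 7.40, 7.92, 7.90, 7.87 and 7.88 in TRα1+m T3 hearts, against 8.11, 10.02 and 10.48 in wild-type T3 hearts. Array 1 was the lowest mutant and wild-type array 6 came closest to the mutant range, and the difference was -1.96 ± 0.34 (adjusted p = 1.4e-04). Cry2 fell by 1.01 ± 0.16 (adjusted p = 6.0e-05), Cry1 fell by 0.74 ± 0.16, Per1 fell by 1.15 ± 0.38 and Per2, whose mutant mean lay below the median negative control, fell by 1.09 ± 0.38. Tef was called lower with both group means below that median. Of these, Per1 lost its call without wild-type T3 array 5 (-0.996), Per2 without wild-type T3 array 5 (-0.86) or 3 (-0.93) and without TRα1+m T3 array 2 (-1.08) or 4 (-1.07), and Cry1, Per1 and Per2 on the deposited scale (-0.26, -0.69 and -0.60). Hlf was called lower (-0.75 ± 0.29, adjusted p = 0.046) but not in 12 of the alternative settings. Without wild-type T3 array 6 the differences were larger, at -4.08 for Dbp, -2.77 for Nr1d1, 2.61 for Arntl and -2.29 for Per3. On water too, wild-type array 6 lay nearest the mutants, with 15.39 for Dbp, 9.95 for Arntl and 9.84 for Per3. The other wild-type water arrays had 17.10 to 17.69, 5.525 to 7.97 and 10.98 to 11.92. The water differences of clock genes given here include that array.

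**Figure D2:**
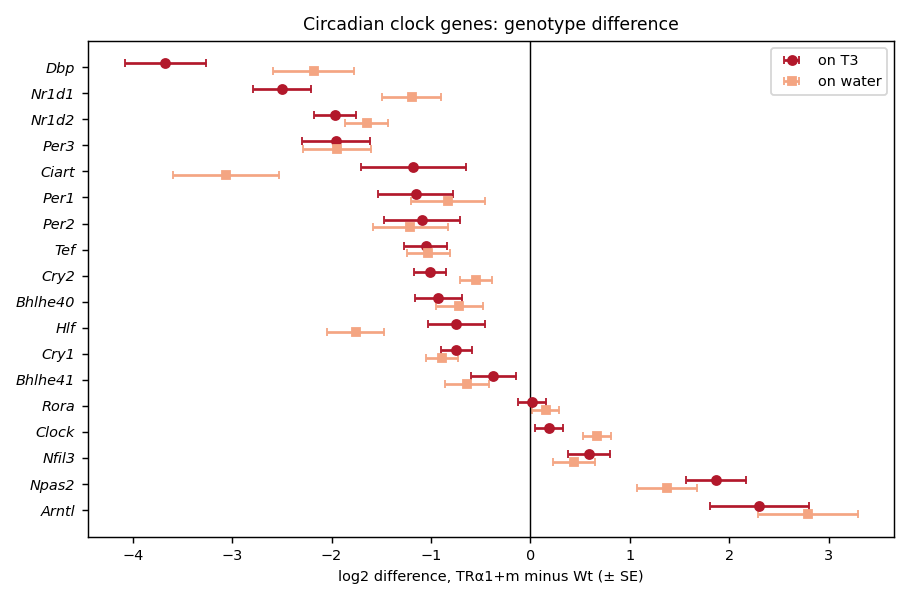
Genotype difference (log2, TRα1+m minus wild type, ± SE) of each tested clock gene on T3 (circles) and on water (squares). Dbp, Nr1d1, Nr1d2 and Per3 lie left of 0 and Arntl and Npas2 right of it in both conditions.

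The promoters of 3 of these genes are shown because each holds the response element of a different arm of the loop within the 300 bases from 250 before to 50 after the RefSeq start site (GRCm38.p6, both strands searched, capitals for the match). Arntl, which rose, has at chr7:113207261-113207560 (plus strand) the ROR element TAGGTCA, the site shared by the Rev-erb repressors and the ROR activators, and 2.61% of all 32851 promoter windows hold it. Per3, which fell, has at chr4:151044616-151044915 (minus strand) 2 copies of the D-box TTATGTAA, bound by Dbp, Tef, Hlf and Nfil3 and present in 0.938% of windows. Per1 has at chr11:69098699-69098998 (plus strand) the E-box CACGTG, the site of Arntl with its partners, which 7.15% of windows hold.
Arntl: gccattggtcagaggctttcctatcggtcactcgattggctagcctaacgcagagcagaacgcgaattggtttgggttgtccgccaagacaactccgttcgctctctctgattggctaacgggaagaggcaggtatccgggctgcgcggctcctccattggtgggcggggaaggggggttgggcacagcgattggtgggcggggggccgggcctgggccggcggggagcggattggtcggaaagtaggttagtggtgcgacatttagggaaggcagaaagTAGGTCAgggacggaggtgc
Per3: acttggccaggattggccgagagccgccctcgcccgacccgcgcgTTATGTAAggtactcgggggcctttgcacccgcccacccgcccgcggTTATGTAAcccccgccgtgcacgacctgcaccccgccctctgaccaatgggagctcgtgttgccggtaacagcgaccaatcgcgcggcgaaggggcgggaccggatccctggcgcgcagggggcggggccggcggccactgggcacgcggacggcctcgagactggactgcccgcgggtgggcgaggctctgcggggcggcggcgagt
Per1: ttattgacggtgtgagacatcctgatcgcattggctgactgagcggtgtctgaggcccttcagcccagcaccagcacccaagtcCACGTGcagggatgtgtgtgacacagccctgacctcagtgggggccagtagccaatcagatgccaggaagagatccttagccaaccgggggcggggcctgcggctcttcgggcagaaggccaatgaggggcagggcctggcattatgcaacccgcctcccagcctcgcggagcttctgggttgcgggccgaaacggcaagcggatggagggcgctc
Of the 16 clock genes with a window, 5 held the E-box, 2 the ROR element and 1 the D-box, against 8.09%, 2.97% and 1.11% of all 27025 genes with a window. A match says only that these letters stand in the window.

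Of the interferon-stimulated genes, part were higher in TRα1+m hearts on T3 and a larger part lower in them on water. These genes are switched on by interferon receptors through STAT and IRF factors, and a low tonic level exists without infection. Of 36 tested, 14 were higher and none lower on T3, with a median of 0.46, against 16.7% and 19% over all probe sets. There were 25 and 0 on the deposited scale and 11 and 2 after median centring. On water 1 was higher and 20 lower, with a median of -0.60, and 12 of the 36 were called for the interaction, against 0.417% of all probe sets. At an unadjusted p below 0.05, 1777 probe sets would pass the interaction test, of which 88 were called.

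Psmb8, an immunoproteasome subunit, had 8.76, 8.93, 9.29, 9.16 and 9.27 in TRα1+m T3 hearts, against 7.32, 7.46 and 7.76 in wild-type T3 hearts. No values overlapped, and the difference was 1.58 ± 0.16 (adjusted p = 1.5e-07, 2.98-fold). Ifit3, an antiviral RNA-binding protein, had 12.55, 12.47, 12.71, 12.47 and 12.79 in TRα1+m T3 hearts, against 11.27, 11.72 and 11.84 in wild-type T3 hearts. It was higher by 0.95 ± 0.16 on T3 (adjusted p = 7.9e-05), and -0.22 ± 0.16 apart on water (adjusted p = 0.27). Xaf1 and Cmpk2 were higher by 1.004 ± 0.17 and 0.70 ± 0.13 (adjusted p = 1.1e-04 and 1.9e-04). Ly6e, the brightest uncalled member, gave -0.01 ± 0.12 on T3 and -0.98 ± 0.12 on water.

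A reversal of sign was plainest in 3 genes chosen after their values were seen. Irf7, the factor that amplifies the interferon response, had 10.24, 10.49, 11.04, 10.45 and 10.94 in TRα1+m T3 hearts, against 8.69, 9.31 and 10.10 in wild-type T3 hearts. It was higher on T3 (1.35 ± 0.35, adjusted p = 0.0040) and lower on water (-1.25 ± 0.35, adjusted p = 0.0065), with an interaction of 2.60 ± 0.49 (adjusted p = 0.011). The TRα1+m water mean of Irf7 lay below the median negative-control probe set of its group (6.52). The size of its water difference and of its interaction was therefore not measured above background. Gbp3, a guanylate-binding protein, was 1.03 ± 0.20 on T3 and -0.92 ± 0.20 on water (interaction adjusted p = 7.5e-04). Rsad2, the antiviral enzyme viperin, was 0.71 ± 0.20 on T3 and -1.55 ± 0.20 on water (interaction 2.26 ± 0.28, adjusted p = 1.6e-04). In both genotypes the level of these genes was higher on T3 than on water: Rsad2 averaged 10.91 in TRα1+m T3 hearts and 7.25 in TRα1+m water hearts, and 10.20 in wild-type T3 hearts and 8.80 in wild-type water hearts.

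**Figure D3:**
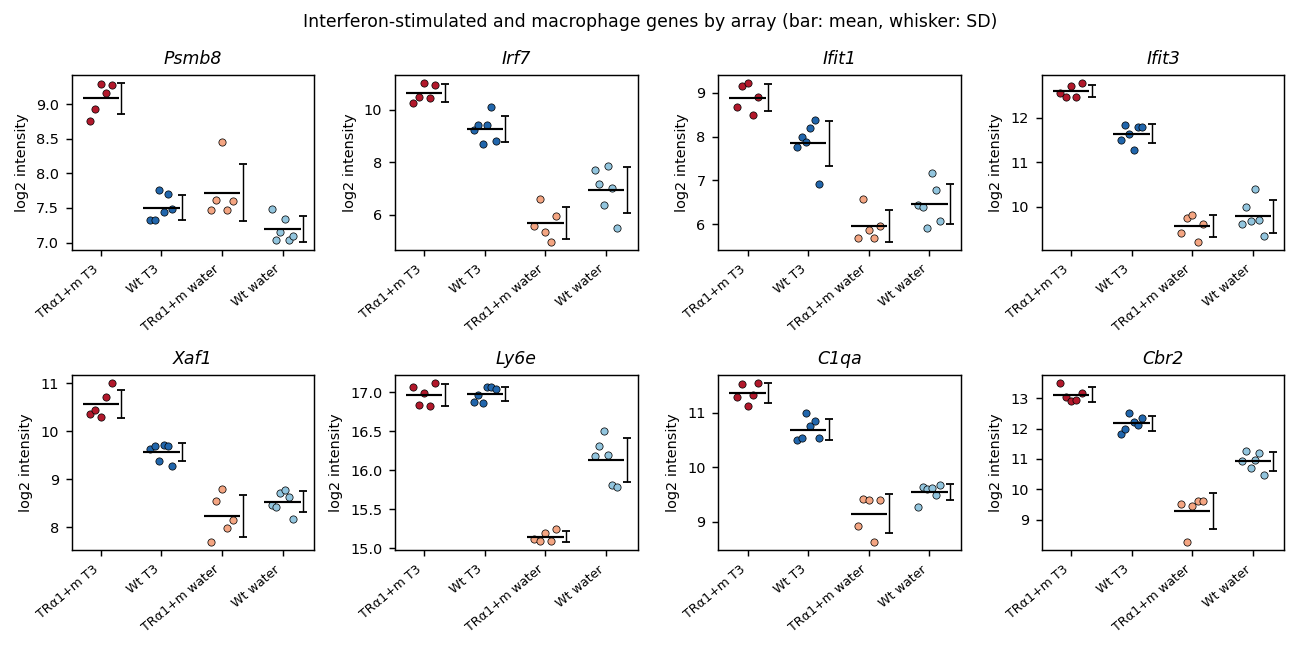
Normalized log2 intensity of 6 interferon-stimulated genes and the macrophage genes C1qa and Cbr2 in every array, with TRα1+m T3, wild-type T3, TRα1+m water and wild-type water from left to right, points for arrays, bars for means and whiskers for SD. Irf7 and Cbr2 are highest in TRα1+m T3 hearts and lowest in TRα1+m water hearts.

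The promoters of Ifit3, Gbp3 and Rsad2 are shown because they carry the interferon-stimulated response element, searched as GAAA and GAAA with any 2 bases between them, on both strands of the same 300-base windows (RefSeq, GRCm38.p6). They lie at chr19:34583279-34583578 (plus strand), chr3:142559794-142560093 (plus strand, 2 overlapping matches) and chr12:26456403-26456702 (minus strand), with the matches in capitals.
Ifit3: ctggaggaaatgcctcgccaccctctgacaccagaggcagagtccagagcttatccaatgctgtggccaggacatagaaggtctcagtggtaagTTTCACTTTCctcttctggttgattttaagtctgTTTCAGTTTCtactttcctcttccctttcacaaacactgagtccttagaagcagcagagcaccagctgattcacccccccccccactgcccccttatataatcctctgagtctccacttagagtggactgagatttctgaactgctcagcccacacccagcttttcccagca
Gbp3: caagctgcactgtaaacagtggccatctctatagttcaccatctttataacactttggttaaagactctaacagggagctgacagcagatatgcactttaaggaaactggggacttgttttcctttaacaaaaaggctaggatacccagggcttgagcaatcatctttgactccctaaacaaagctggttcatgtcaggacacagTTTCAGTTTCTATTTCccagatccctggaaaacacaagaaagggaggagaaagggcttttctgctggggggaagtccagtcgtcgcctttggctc
Rsad2: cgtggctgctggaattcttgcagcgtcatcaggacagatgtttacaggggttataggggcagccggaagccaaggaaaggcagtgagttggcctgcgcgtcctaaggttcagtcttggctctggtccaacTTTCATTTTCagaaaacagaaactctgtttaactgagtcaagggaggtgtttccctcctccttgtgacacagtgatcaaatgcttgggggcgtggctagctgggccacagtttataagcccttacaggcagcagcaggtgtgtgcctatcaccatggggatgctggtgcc
The element was present in 16 of the 25 interferon genes with a window (64%) and in 3.99% of all 27025 genes, as a description of a list chosen for its response to interferon.

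Single macrophage markers were called in both directions on T3. Cbr2, a carbonyl reductase of resident macrophages, had 13.50, 13.04, 12.91, 12.93 and 13.15 in TRα1+m T3 hearts, against 11.82, 12.16 and 12.52 in wild-type T3 hearts. Its ranges did not overlap on T3 (0.94 ± 0.21, adjusted p = 0.0012), and on water it was lower in TRα1+m hearts (-1.62 ± 0.21), giving an interaction of 2.56 ± 0.29 (adjusted p = 9.0e-05). The complement gene C1qa had 11.29, 11.52, 11.12, 11.32 and 11.55 in TRα1+m T3 hearts, against 10.51, 10.65 and 10.99 in wild-type T3 hearts. It was higher by 0.67 ± 0.14 (adjusted p = 9.3e-04), as was the Fc receptor Fcgr3 by 0.72 ± 0.15, both of them uncalled after median centring. The mannose receptor Mrc1 fell by 0.64 ± 0.14 (adjusted p = 0.0011), and the lysozyme gene Lyz2 was not called (0.01 ± 0.17). Over the list of 26 markers 7 were higher, 3 lower and 16 not called on T3, a called share near the 35.6% of all probe sets. On water 0 were higher and 17 lower. The counts on T3 were 15 and 1 on the deposited scale and 2 and 5 after median centring. The summed intensity of the list, on the log2 scale, was 15.72 to 16.07 in TRα1+m T3 hearts and 15.72 to 15.88 in wild-type T3 hearts, and 13.75 to 14.08 in TRα1+m water hearts and 14.28 to 14.93 in wild-type water hearts. The part of macrophage content in the interferon differences was not tested, and in whole hearts more or fewer cells of a type cannot be told apart from more or less RNA per cell.

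Subunits of the respiratory chain were higher in TRα1+m T3 hearts in part. Complex I, which oxidizes NADH, had 23 of 36 tested subunits higher and 7 lower, with a median of 0.39, beside 16.7% and 19% over all probe sets. Complexes II to V had 21 of 35 higher and 1 lower, with a median of 0.29. The counts were 23 and 5 and 21 and 2 on the deposited scale, but the balance turned after median centring, to 11 higher and 13 lower and to 4 higher and 13 lower. On water 16 complex I subunits were higher and 10 lower. Subunits of the same complex differed in opposite directions by amounts well above their errors. Ndufb8 had 11.51, 12.01, 11.94, 11.88 and 11.95 in TRα1+m T3 hearts, against 10.05, 10.37 and 10.54 in wild-type T3 hearts. Ndufb3 had 11.92, 11.97, 11.84, 11.97 and 11.81 in TRα1+m T3 hearts, against 12.99, 13.09 and 13.24 in wild-type T3 hearts. Neither gene had overlapping ranges, and the differences were 1.52 ± 0.11 and -1.19 ± 0.12 (adjusted p = 2.9e-09 and 2.4e-07). Ndufv3 was higher by 1.23 ± 0.13, the complex III subunit Uqcrc2 by 1.16 ± 0.10, the succinate dehydrogenase subunit Sdha by 0.83 ± 0.11, cytochrome c1 (Cyc1) by 0.80 ± 0.12 and the ATP synthase subunit Atp5c1 by 0.72 ± 0.09, the last uncalled after median centring (0.18). Ndufc1 and Atp5b were not called (-0.17 ± 0.08 and 0.12 ± 0.08).

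Ribosomal protein genes leaned the same way. Of 54 genes of the cytosolic ribosome 35 were higher and 4 lower on T3, with a median of 0.43, beside 16.7% and 19% over all probe sets. The lean remained on the deposited scale (41 and 4) and after median centring (13 and 8). Rps9 had 12.38, 12.86, 12.85, 12.69 and 12.98 in TRα1+m T3 hearts, against 10.81, 11.15 and 11.40 in wild-type T3 hearts. The groups were far apart (1.59 ± 0.15, adjusted p = 8.1e-08, 3.01-fold), as on water (1.60 ± 0.15). Rpl19 and Rpl11 were higher by 1.32 ± 0.11 and 1.12 ± 0.10, and Rps15 was not called (0.16 ± 0.13). In the mitochondrial ribosome 26 of 53 genes were higher and 5 lower, against 38 and 3 on the deposited scale and 9 and 12 after median centring. Mrpl34 was higher by 1.06 ± 0.13 and Mrps9 fell by 1.09 ± 0.09 (adjusted p = 2.0e-06 and 2.8e-08). Ribosomal proteins have many processed pseudogenes in the mouse genome, so their probe sets may share signal with such copies.

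Fuel genes showed some large single differences. Scd4, a stearoyl-CoA desaturase expressed in heart, had the largest rise among the genes named by the rule, with 9.08, 8.88, 8.96, 9.54 and 10.05 in TRα1+m T3 hearts, against 6.11, 6.27 and 6.57 in wild-type T3 hearts. All mutant arrays were above all wild-type arrays, and the difference was 2.99 ± 0.28 (adjusted p = 6.8e-08), and 3.95 ± 0.28 on water. Wild-type T3 arrays were at the level of their negative controls (median 6.44), so no wild-type signal above background was shown on T3, and the mutant mean was 7.27-fold above that median. Acot1, a thioesterase for long-chain acyl-CoA, had 8.36, 8.71, 8.33, 8.66 and 8.12 in TRα1+m T3 hearts, against 6.51, 6.63 and 6.95 in wild-type T3 hearts. It was higher by 1.76 ± 0.22 (adjusted p = 3.2e-06), and Acadm and Decr1, which act in beta oxidation, were higher by 0.92 ± 0.12 and 0.85 ± 0.11. Of 39 fatty acid oxidation genes 13 were higher and 3 lower, beside 16.7% and 19% over all probe sets. The counts were 18 and 1 on the deposited scale and 6 and 12 after median centring, and the carrier Fabp3 was not called (0.07 ± 0.08). In the citric acid cycle 10 of 22 genes were higher and 4 lower, where Idh3b rose by 1.07 ± 0.09 (adjusted p = 2.1e-08). Outside that list, Dlat, a subunit of pyruvate dehydrogenase, fell by 0.84 ± 0.10 (adjusted p = 1.2e-06).

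**Figure D4:**
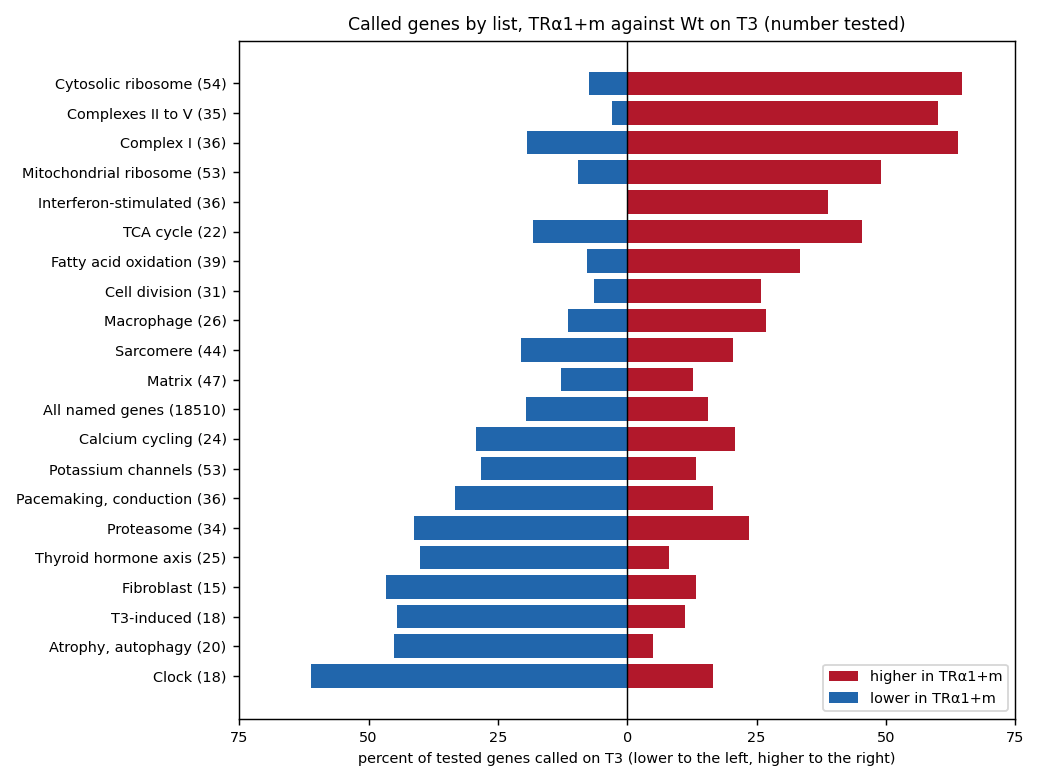
Percent of the tested genes of each list that were called on T3, lower in TRα1+m hearts to the left and higher to the right, with the number tested in parentheses. The ribosome and respiratory chain lists lean to the right, which turned after median centring for the respiratory chain and the mitochondrial ribosome, and the clock, hormone axis and fibroblast lists lean to the left, which was even for the last 2 on the deposited scale.

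Protein turnover genes included several that were lower. Of 34 proteasome genes 14 were lower and 8 higher, beside 19% and 16.7% over all probe sets. The counts were 12 and 11 on the deposited scale and 21 and 4 after median centring. Psme4, a proteasome activator, fell by 1.05 ± 0.12 and Psma7, a core subunit, rose by 1.10 ± 0.12 (adjusted p = 1.0e-06 and 4.5e-07). Of 20 genes of atrophy and autophagy 9 were lower and 1 higher, against 6 and 6 on the deposited scale and 13 and 1 after median centring. The transcription factor Foxo1 had 7.22, 7.08, 7.56, 7.10 and 7.68 in TRα1+m T3 hearts, against 8.15, 8.59 and 9.08 in wild-type T3 hearts. It was lower in each mutant array (-1.25 ± 0.17, adjusted p = 9.6e-06), and its target Fbxo32 (atrogin-1) fell by 1.04 ± 0.14. The growth inhibitor Mstn was called lower with both group means below the median negative control, and was not called on the deposited scale. Of the chaperone genes, Hsph1 fell by 1.13 ± 0.17 and Hsp90aa1 rose by 0.93 ± 0.15. Cdkn1a, the cell cycle inhibitor p21, had 11.61, 10.08, 9.87, 10.35 and 10.01 in TRα1+m T3 hearts, against 7.61, 7.86 and 8.99 in wild-type T3 hearts. Array 1 was the highest of the mutants, and the difference was 2.34 ± 0.27 (adjusted p = 1.3e-06, 5.05-fold), or 2.03 without that array.

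Of 27 genes of iron and retinoid handling 8 were lower and 1 higher on T3, beside 19% and 16.7% over all probe sets. Lrat, which esterifies retinol for storage, had 9.23, 9.54, 9.97, 10.21 and 10.47 in TRα1+m T3 hearts, against 11.09, 12.61 and 12.85 in wild-type T3 hearts. Wild-type array 6 was apart from the other wild types and nearest the mutants, and the difference was -2.53 ± 0.26 (adjusted p = 2.3e-07, 5.76-fold), or -2.79 without it. Both genotypes were below the median negative control on water (means 5.21 in TRα1+m hearts and 5.88 in wild-type hearts), and the interaction was -1.86 ± 0.36 (adjusted p = 0.016). Aldh1a1, which makes retinoic acid, fell by 1.29 ± 0.19 and the receptor gene Nr2f2, an atrial identity factor, fell by 1.26 ± 0.13 (adjusted p = 1.9e-05 and 2.3e-07). Of 15 atrial markers tested, Nr2f2 and Myl1 among them, 4 were lower, 0 higher and 11 not called on T3. Gpx3, the secreted glutathione peroxidase, had 16.05, 15.51, 15.67, 15.50 and 15.94 in TRα1+m T3 hearts, against 17.16, 17.32 and 17.60 in wild-type T3 hearts. The ranges were more than 1 log2 unit apart, with a difference of -1.60 ± 0.17 (adjusted p = 3.2e-07) at high intensity. The immediate early factor Egr3 fell by 1.84 ± 0.16 (adjusted p = 2.3e-08), with the mutant arrays below the median negative control.

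Markers of fibroblasts, endothelium and mast cells gave calls in both directions. Of 15 fibroblast markers 7 were lower and 2 higher, beside 19% and 16.7% over all probe sets. The counts were 5 and 5 on the deposited scale and 8 and 0 after median centring, and Thy1 fell by 1.04 ± 0.22 (adjusted p = 7.3e-04). The summed log2 intensity of the fibroblast markers was 16.83 to 17.20 in TRα1+m T3 hearts and 17.11 to 17.48 in wild-type T3 hearts. In the matrix list of 47, 6 were higher and 6 lower, against 14 and 4 on the deposited scale and 3 and 15 after median centring, among them the protease Mmp14, higher by 1.37 ± 0.19, and the basement membrane collagens Col4a3 and Col4a4, which share a promoter region (differences -1.40 ± 0.20 and -1.23 ± 0.14). The ligand Tgfb3 fell by 1.29 ± 0.14 and the converting enzyme Ace fell by 0.88 ± 0.16. Endothelial markers gave 3 higher and 3 lower calls of 24, beside 16.7% and 19% over all probe sets. Cldn5, a tight junction protein, was higher by 0.57 ± 0.18 on T3, a call lost without TRα1+m T3 array 4 (0.41), and by 1.81 ± 0.18 on water (interaction -1.24 ± 0.25, adjusted p = 0.022). The mast cell protease genes did not move as one. Cpa3 was higher by 1.88 ± 0.21, Mcpt4 was higher by 1.56 ± 0.26 with its wild-type mean below the median negative control, and Cma1 was called lower by -0.66 ± 0.16 with both group means below that median and no call on the deposited scale (-0.16). The mast cell receptor Kit fell by 0.86 ± 0.19.

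Cell division genes gave 8 higher and 2 lower calls of 31 on T3, with a median of 0.41, against 1 and 4 on water, so that the 10 called were a smaller share than the 35.6% of all probe sets. The counts were 22 and 1 on the deposited scale and 7 and 3 after median centring. Bub1, a spindle checkpoint kinase, had 7.80, 6.34, 6.26, 6.70 and 7.09 in TRα1+m T3 hearts, against 4.56, 5.33 and 5.95 in wild-type T3 hearts. The mutant arrays were higher throughout, by 1.54 ± 0.31 (adjusted p = 5.2e-04), and all wild-type arrays lay below the median negative control of their group. Set against that median, the mutant mean was 1.32-fold higher.

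Another 2 reductions rested on low mutant signals. Tmem196, a membrane protein gene, had 4.62, 5.56, 5.18, 5.64 and 5.31 in TRα1+m T3 hearts, against 7.36, 7.50 and 7.90 in wild-type T3 hearts. Ano5, a muscle scramblase whose loss causes muscular dystrophy in humans, had 5.04, 5.79, 5.29, 4.94 and 5.26 in TRα1+m T3 hearts, against 7.27, 7.45 and 7.89 in wild-type T3 hearts. In both, all mutant arrays lay below the median negative control and all wild-type arrays above it, with differences of -2.34 ± 0.17 and -2.25 ± 0.17 (adjusted p = 2.8e-09 and 2.9e-09).

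Set beside the water comparison, most of the genotype difference on T3 was shared. Of the 7517 calls on T3, 5454 (72.6%) were also called on water in the same direction, which is 64.8% of the 8421 water calls (39.9% of probe sets), and 26 were called in opposite directions. Across probe sets, which are not independent, the differences on T3 and on water were related with Pearson's r = 0.837 and Spearman's rho = 0.812. A further 2037 were called on T3 and not on water, but only 10 of them had an interaction call, so for the others a difference between the conditions was not shown. Likewise 2941 were called on water only, 38 of them with an interaction call. The interaction was called for 88 probe sets, 62 positive and 26 negative. Of the calls on T3, 2065 higher (9.79% of tested probe sets) and 2035 lower (9.65%) were at least 1.5-fold, and 619 (2.93%) and 340 (1.61%) at least 2-fold.

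**Figure D5:**
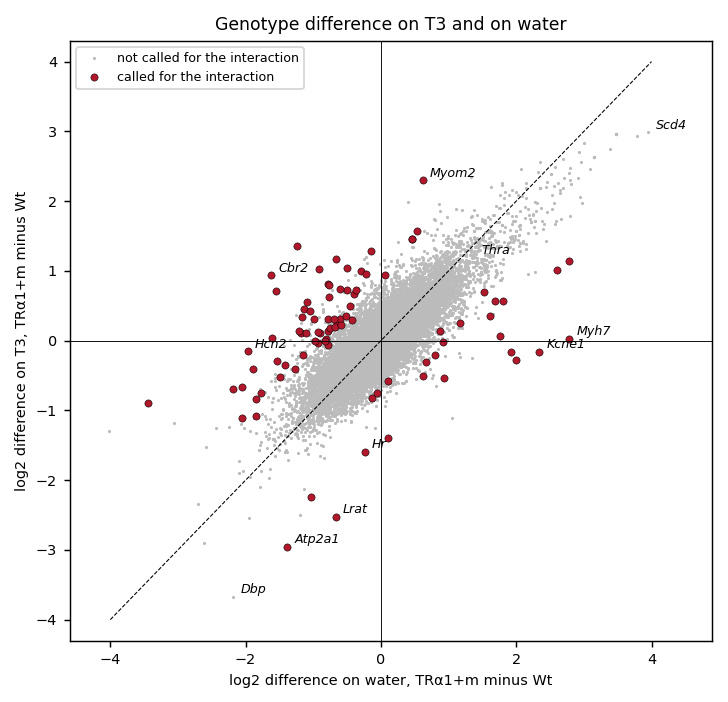
Genotype difference on T3 (vertical axis) against that on water (horizontal axis), in log2 units and TRα1+m minus wild type, for every tested probe set, with the dashed line at equal differences and filled points for the 88 interaction calls. Myh7, Kcne1 and Hcn2 lie near 0 on the vertical axis, while Atp2a1, Lrat and Hr lie below the line and Myom2 and Cbr2 above it.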

How the data were processed

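The authors deposited log2 intensities per probe set, made from Clariom S Mouse arrays of WT Pico labelled whole-heart RNA, with RMA in Transcriptome Analysis Console 4.0.1 per the labels; the sources used here name no genome build. The table holds 28846 probe sets, of which 22206 are gene probe sets, and 19572 of these name 1 gene, through platform annotation. Gene probe sets of all 22 arrays were quantile normalized together, those with a deposited mean above 4 were kept (21092), and a model of 4 group means was fitted with limma 3.58.1 in R 4.3.3 (lmFit, eBayes), with Benjamini-Hochberg adjustment over all tested probe sets in each contrast. The scripts were tested on simulated data. Groups came from the sample titles. The p-values measure the spread between the arrays, whose number limits the precision.

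Named genes were the largest called rises and falls on T3, those shared with water or with an interaction call, up to 4 called members and 1 uncalled member of each list, and the genes of the study, a gene with several probe sets being read from the brightest. Others are named as chosen after their values were seen. The genes, lists and tests were chosen with earlier results of these data known. Alternatives were other normalizations and scales, filters, variance models, thresholds, the study's p adjustment, replicate number as a block, and each array left out in turn. 2 were added after seeing the data, leaving out 2 arrays that stood apart and a correction by negative-control probe sets of like level. Replicate numbers were not read as pairs. Same-numbered arrays were correlated only between the 2 T3 groups, for numbers 1 to 5. Promoter windows came from RefSeq (GRCm38.p6).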

Additional observations from a re-analysis of the deposited data

Results flagged for a closer look

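Of 260 gene and group combinations examined, 23 held an array whose gap to the next value exceeded Dixon's 95% critical value, which chance gives in about 1 of 20. In TRα1+m T3 array 1 the values were 11.61 for Cdkn1a (next 10.35), 7.40 for Per3 (next 7.87), 6.71 for Kcnd2 (next 7.64), 13.56 for Hrc (next 14.23), 11.51 for Ndufb8 (next 11.88), 14.79 for Rpl19 (next 15.02) and 11.71 for Ace (next 11.11). In TRα1+m T3 array 2 the values were 10.78 for Thra (next 11.09) and 14.60 for Calm3 (next 14.79). In TRα1+m T3 array 4 the values were 11.04 for Ndufv3 (next 10.56), 19.20 for Atp5b (next 19.10) and 10.77 for Cldn5 (next 10.08). In wild-type T3 array 1 the values were 19.37 for Atp2a2 (next 19.57) and 13.22 for Acadm (next 13.39). In wild-type T3 array 3 the values were 11.79 for Hsph1 (next 11.34). In wild-type T3 array 4 the values were 11.59 for Tek (next 11.35) and 10.14 for Cldn5 (next 9.54). In wild-type T3 array 5 the values were 8.21 for Hr (next 8.46), 13.74 for Tbx20 (next 14.08) and 14.21 for Decr1 (next 14.49). In wild-type T3 array 6 the values were 11.09 for Lrat (next 12.48), 11.63 for Nr1d1 (next 12.92) and 17.47 for Myl1 (next 17.75). 

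The genotype difference itself differed between T3 and water (limma interaction, log2) for 20 of the named genes. It was more positive on T3 for Hcn2 (1.81), Myom2 (1.68), Psmb8 (1.05), Ifit3 (1.18), Xaf1 (1.30), Ly6e (0.97), Ifit1 (1.54), Irf7 (2.60), Gbp3 (1.95), Rsad2 (2.26), C1qa (1.06) and Cbr2 (2.56). It was more negative on T3 for Kcne1 (-2.50), Myh7 (-2.76), Hr (-1.35), Atp2a1 (-1.57), Lrat (-1.86), Ano5 (-1.22), Cldn5 (-1.24) and Tnni1 (-2.28). For several of the 20 the size was not measured above background. Kcne1 was below the median negative control in both T3 groups and Tnni1 in all groups. Lrat and Ifit1 were below it in both water groups, and Atp2a1 and Ano5 in both water groups and TRα1+m T3 hearts. Hcn2, Hr and Irf7 were below it in TRα1+m water hearts.

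Negative-control probe sets, which enter no comparison above, also differed between the T3 groups, with 13% of 4991 (649, of which 413 lower in TRα1+m hearts) at or below the largest unadjusted p that was called (0.0178), and 7.21% of them at least 2-fold, beside 4.55% of gene probe sets.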

How the results depend on the processing

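The number of calls on T3 (7517) ranged from 6762 without TRα1+m T3 array 2 to 7344 without wild-type T3 array 6, that on water (8421) from 7444 to 8351, and that for the interaction (88) from 61 without wild-type water array 4 to 119 without TRα1+m water array 2. With a fold of at least 1.5 the calls were 4100 on T3 and 4843 on water, and with at least 2-fold 959 and 1293, and 58 for the interaction. The interaction also gave 58 calls on the deposited scale and 48 after median centring, and 162 with a trended, robust variance and 152 when only probe sets with a group mean above the negative controls were tested; the cause was not tested. Median centring reversed Atp5b (-0.55), Fabp3 (-0.59), Myh6 (-0.65), Nppa (-0.51), Pln (-0.53), Tnni3 (-0.012) and Tnnt2 (-0.093), of which only the last 2 were called in the joint normalization. The replicate number as a block gave 7458 calls on T3, 6939 of them shared, 8372 on water and 89 for the interaction. Correlations of same-numbered deviations between the 2 T3 groups were -0.16 to 0.05, so the numbers were not read as pairs. Other pairs of groups were not examined in this way. Leaving out the 2 arrays that stood apart, an alternative chosen after seeing the data, gave 7508, 8517 and 80 calls, and the correction by negative controls of like level, also chosen then, gave 6262 on T3 (3599 higher and 2663 lower), 7462 and 59, with complex I at 12 higher and 6 lower, complexes II to V at 5 and 1, the cytosolic ribosome at 19 and 4, the clock at 3 and 9 and interferon genes at 17 and 0. Of the named genes not already given, Cldn5, Tek, Mmp2, Ppargc1a, Thrsp and Rsad2 lost their calls after median centring (0.32, 0.22, 0.38, 0.32, 0.87 and 0.42), and Kit on the deposited scale (-0.45). Probe sets with all group means below the negative controls numbered 7953, and 26.52% of them were called on T3, against 41.16% of the others.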

Other observations

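Some families outside the lists were noticed after their values were seen. Genes of the Y chromosome, histone genes and major urinary protein genes had more calls than the 35.6% of all probe sets. Of 28 genes on the Y chromosome 19 were higher and 2 lower in TRα1+m T3 hearts (75%), with a median of 1.42 on T3 and 1.49 on water. Among the higher ones was Sly, a multicopy gene of the long arm expressed in germ cells. Sly, which had 10.08, 10.04, 9.95, 9.45 and 9.32 in TRα1+m T3 hearts, against 6.57, 7.54 and 8.44 in wild-type T3 hearts, was higher by 2.28 ± 0.40 (adjusted p = 1.6e-04). The broadly expressed Uty fell by 0.47 ± 0.09, and Kdm5d was not called (-0.09 ± 0.16, adjusted p = 0.71). Several of these probe sets share sequence between copies, so they are not separate measurements.

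Of 56 histone genes 40 were higher and 2 lower on T3, with a median of 0.98, against 28 and 5 on water with a median of 0.47. The major urinary protein genes, made mainly in liver, gave 6 higher calls of 8. Mup19 had 11.08, 12.21, 8.48, 7.999 and 8.16 in TRα1+m T3 hearts, against 5.56, 7.29 and 8.35 in wild-type T3 hearts, so arrays 1 and 2 carried most of the difference of 2.46 ± 0.69 (adjusted p = 0.0076), which was 2.09 without array 1 and 1.81 without array 2. Mup9 and Mup22, near-identical copies, differed by 2.34 ± 0.60 and 2.26 ± 0.64. Olfactory receptor genes, which heart is not known for, had a smaller called share than all probe sets, with 160 higher and 76 lower calls of 965 (24.5%). The same held for vomeronasal receptor genes, with 66 and 27 of 294 (31.6%). Only 42 of the 965 and 44 of the 294 had a T3 group mean above the median negative control.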
